A study of Mus musculus with 12 samples.

Results

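Genes of the axon injury and regeneration program were followed through every retina of the study. These were Klf6, Sox11, Map3k12, Sprr1a, Gap43, Stmn2, Gal, Ecel1 and Hrk, and they were chosen by gene symbol as 9 of the 25124 genes listed in both expression tables. RNA was sequenced from whole retinas of wild-type mice 2 days after intraocular pressure (IOP) had been raised to 30 mmHg for 1 h in 1 eye, through a needle placed in the anterior chamber. The untreated other eye gave the control retinas. The design asked how the retina of young and old animals responds to this stress, and how repeated stress compares.

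The 12 libraries made 6 groups of 2, all of C57BL/6J wild-type animals. Retinas of 3-month-old mice without and with IOP elevation formed the 3mo control and 3mo IOP groups, and retinas of 18-month-old mice formed the 18mo control and 18mo IOP groups. Mice that were 3 months old when treatment began and received 4 elevations, 1 every 2 weeks, gave the 4xIOP retinas and, from the opposite eye, the 4xIOP control retinas. Values were FPKM, read counts divided by transcript length and scaled to the mapped reads of the library, in a table for the 8 retinas with a single elevation or none and another for the 4 retinas of the repeated series. Levels across the tables were scaled separately and are only set side by side. The study names its samples as biological replicates, but the labels tie no replicate number to an animal, so if samples shared an animal the p-values measure only the spread between samples.

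When an axon is cut or crushed, a stress signal travels back to the cell body, where kinases of the DLK and JNK cascade switch on transcription factors such as JUN, ATF3, SOX11 and KLF6. These factors act on effector genes for the growth cone, for secreted peptides and for cell death. In the retina the cells with a long axon in the optic nerve are the retinal ganglion cells, and the program is best known in them after optic nerve crush.

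Depth was between 39766263 and 59455058 tags per library, of which 44.2% to 71.5% lay in exons. A tag is a mapped read, and 60.2% to 71.7% of the low values in a library were even numbers of tags, as when both mates of a fragment are counted. A library's limit of measurement was therefore set at 6 tags (3 fragments), and it covers counting error only. Libraries differed within groups. Summed over 11 markers of retinal ganglion cells, 3mo control replicate 1 had 339 FPKM and replicate 2 had 638, and 18mo IOP replicate 1 had 95.8 and replicate 2 had 39.7. The sum over 8 amacrine cell markers was 80.4 in 18mo IOP replicate 1 and 18.3 in replicate 2. These libraries are followed through the results, and the retinal label held in all, with rod photoreceptor markers summing to between 4768 and 24155 FPKM.

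Differences were tested on log2(FPKM + 0.5) with limma, across all genes whose mean over a table reached 0.5 FPKM. Calls needed both an adjusted p (Benjamini-Hochberg) of 0.05 or less and a change of 1 or more, up or down, on the log2 scale. Of the 9 genes, 6 passed the filter in the single-elevation table (Klf6, Map3k12, Sprr1a, Gap43, Stmn2 and Gal) and 4 in the repeated series (Klf6, Map3k12, Gap43 and Stmn2). Klf6, Map3k12, Gap43 and Stmn2 were above 0.5 FPKM in every library. Sprr1a passed only through its 18mo IOP libraries and Gal only through the retinas of 3-month-old mice, the groups where each was high, so that their fitted values are given as descriptions and their calls are not counted. Sox11, Ecel1 and Hrk stayed below 0.5 FPKM in all 12 libraries and are given as values. Over all tested genes the median change on the log2 scale was 0.13 for IOP at 3 months, 0.09 at 18 months, 0.16 for age in control retinas and 0.10 for 4xIOP, and median-of-ratios scaling moved these to between -0.04 and 0.01.

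**Figure D1:**
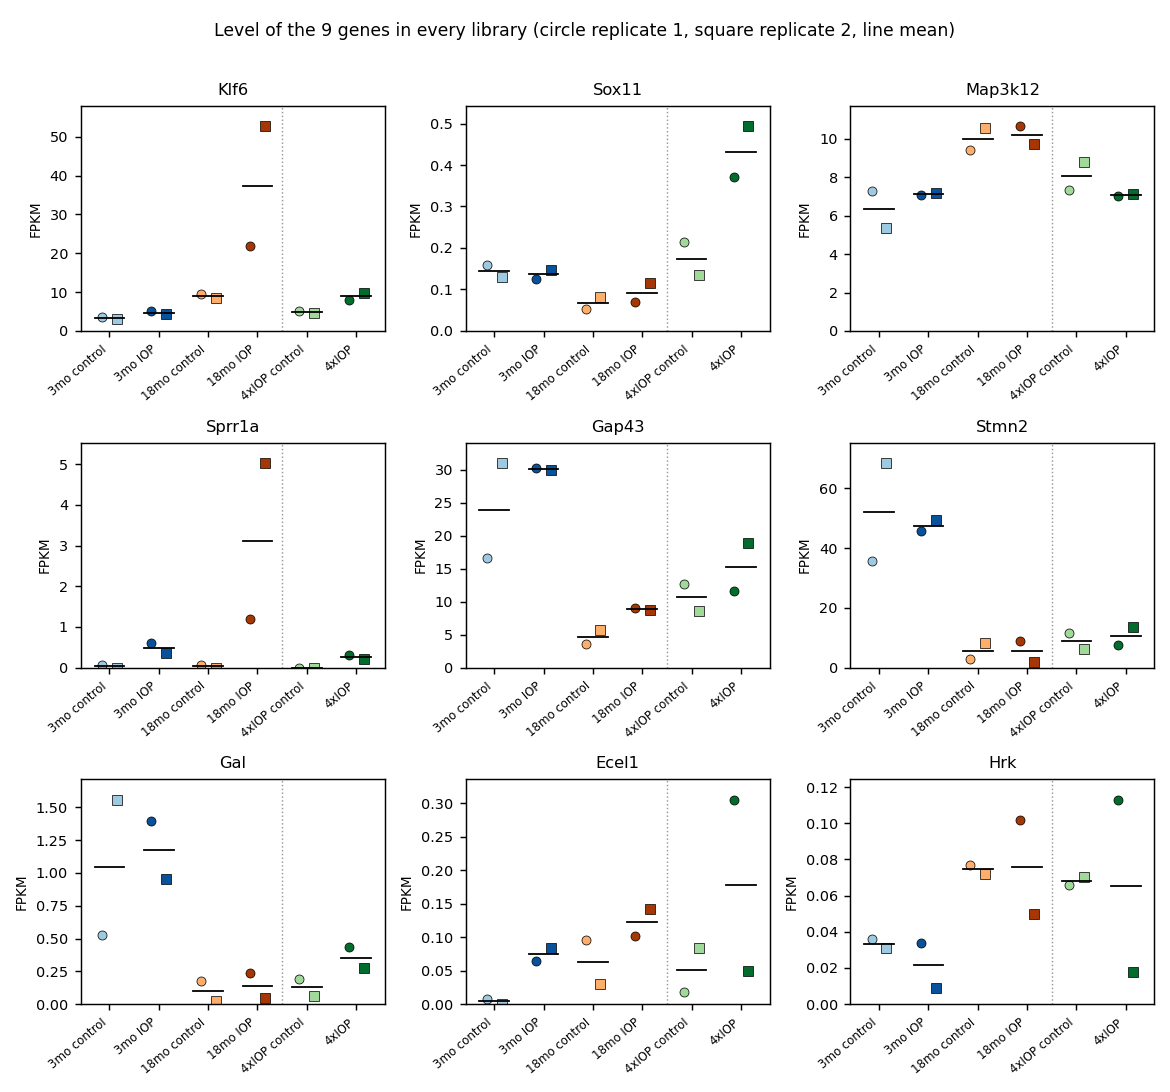
FPKM (vertical axis, linear from 0, scaled per panel) of each of the 9 genes in the 6 groups (horizontal axis), with circles for replicate 1, squares for replicate 2 and lines for the mean of 2. The dotted line parts the 2 tables. Sprr1a and Klf6 were highest in the 18mo IOP libraries, at 1.20 and 5.03 and at 21.9 and 52.7 FPKM, while Gap43, Stmn2 and Gal were lower in all 4 retinas of 18-month-old mice than in any of 3-month-old mice in the same table.

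The 2 of the 6 tested genes with the largest fitted change after IOP at 18 months, neither of them called, were Klf6, a zinc finger transcription factor, and Sprr1a, a small proline-rich protein of the cornified envelope that injured neurons also make. To show what lies in front of them, the 250 bases before each transcript start are printed 5′ to 3′ on the gene's strand, from the RefSeq promoter table (GRCm38.p6, the assembly of mm10). Capitals mark matches of the AP-1 motif, TGANTCA, the site bound by JUN and ATF3 dimers. The Sprr1a window is chr3:92485882-92486131, minus strand, and the Klf6 window is chr13:5861239-5861488, plus strand.
Sprr1a: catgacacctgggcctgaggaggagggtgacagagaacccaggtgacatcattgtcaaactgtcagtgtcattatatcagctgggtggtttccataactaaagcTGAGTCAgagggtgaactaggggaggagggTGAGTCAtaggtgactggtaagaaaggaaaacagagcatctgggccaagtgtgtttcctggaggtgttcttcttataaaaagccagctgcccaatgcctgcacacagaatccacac
Klf6: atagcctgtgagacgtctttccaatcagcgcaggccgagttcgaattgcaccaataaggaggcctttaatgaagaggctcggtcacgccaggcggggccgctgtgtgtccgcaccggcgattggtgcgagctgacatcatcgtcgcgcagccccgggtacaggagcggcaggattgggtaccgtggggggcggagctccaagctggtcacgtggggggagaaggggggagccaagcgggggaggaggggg

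The Sprr1a window held 2 AP-1 matches, from 146 to 140 and from 116 to 110 bases before the start. An AP-1 match was present in 6.75% of the 32851 promoter windows of that length. The same window held 4 matches of CACCC, a KLF motif, on the opposite strand, 1 of them overlapping the AP-1 match nearer the start. A CACCC match on either strand was found in 52% of all windows. The Klf6 window held no match of AP-1, of CACCC, of the CRE motif TGACGTCA, of the STAT motif TTCNNNGAA or of the SOX motif ACAAAG. Windows were found for 7 of the 9 genes, and among Sox11, Ecel1, Gal, Hrk and Map3k12 none had an AP-1, CRE or STAT match, and Ecel1 had the 1 SOX match. The other 3 motifs were present in 1.55% (CRE), 7.02% (STAT) and 16.5% (SOX) of all windows, counted like the rest on both strands. Gap43 and Stmn2 had no entry in the table. Matches are letters in a window and not bound sites.

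**Figure D2:**
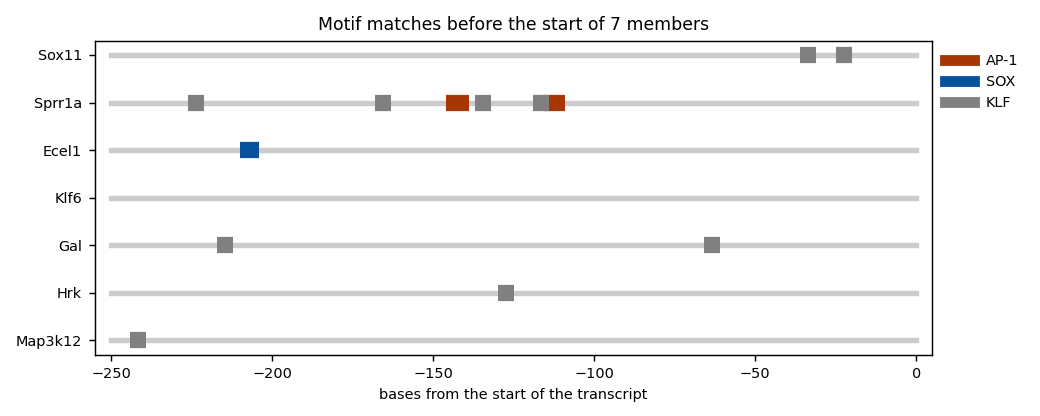
Motif matches, on either strand, in the 250 bases before the start of 7 genes. The horizontal axis is the distance from the transcript start in bases, and coloured blocks mark AP-1, SOX and KLF matches. The 2 AP-1 matches both lie in Sprr1a, and Klf6 has no match.

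A single IOP elevation was followed by higher Klf6, Sprr1a and Ecel1 values in both IOP libraries than in both controls at each age. Klf6 and Sprr1a did not pass the test, and Ecel1 was under the filter and not tested. Such separation was common, since 28.6% of all tested genes were higher without overlap at 3 months and 36.5% at 18 months, against 3.95% and 9.89% that were lower without overlap. No gene of the 9 was called after IOP elevation at 3 or at 18 months. Over all tested genes 0.575% were called at 3 months and 0.124% at 18 months. At an unadjusted p under 0.05, 0 of the 6 tested genes passed at 3 months and 3 at 18 months (Klf6, Gap43 and Sprr1a, the last not counted because of the filter), where 8.51% and 9.45% of all tested genes did. With voom, the weighted limma fit to the recovered reads, 0 of the 9 were called at either age.

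Klf6 (chr13:5861489-5870393, mm10, plus strand) had 3.57 and 3.08 FPKM in the 3mo controls and 5.09 and 4.24 in the 3mo IOP retinas. In 18-month-old mice it had 9.50 and 8.47 FPKM in controls and 21.9 and 52.7 after IOP. The groups did not overlap at either age, and the second 18mo IOP library stood far above the first. That second library also had the lowest amacrine marker sum of the 12, and the part of its cell makeup in the Klf6 value was not tested. The log2 fold change of IOP was 0.43 ± 0.35 (SE, limma adjusted p = 0.929) at 3 months and 1.87 ± 0.35 (adjusted p = 0.110) at 18 months, which was higher than in 99.5% of the genes tested. Without 18mo IOP replicate 1 it was 2.49 and called (adjusted p = 0.00491), and without replicate 2 it was 1.24 (adjusted p = 0.254).

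Sprr1a (chr3:92483954-92485881, minus strand) was at or below 2 tags in each of the 6 control libraries of the study. A single elevation gave 0.609 and 0.366 FPKM at 3 months, from 26 and 12 tags, and 1.20 and 5.03 FPKM at 18 months, from 52 and 235 tags. Against the limit of 6 tags per library in the controls, the mean of the IOP retinas was at least 2.84-fold higher at 3 months and at least 18.5-fold higher at 18 months. The latter bound was 7.14-fold from 18mo IOP replicate 1 alone and 29.8-fold from replicate 2 alone. On the log2(FPKM + 0.5) scale the differences were 0.89 ± 0.48 (SE, limma adjusted p = 0.743) and 2.54 ± 0.48 (adjusted p = 0.111). Leaving out 18mo IOP replicate 1 gave 3.39, for a gene then tested only through replicate 2. Without replicate 2 the gene fell under the filter.

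Sprr1a is also made by the epithelium of cornea, conjunctiva and skin, so 12 markers of these tissues were read beside it. Their sum was 6.76 and 0.315 FPKM in the 18mo controls and 0.573 and 0.589 in the 18mo IOP retinas, where Krt5, Krt14, Krt4 and Krt13 were listed at 0. The neighbouring family members Sprr1b and Sprr2a1 were listed at 0 in all 12 libraries. The highest sum, 53.3 FPKM, was in 3mo control replicate 2, which had 0 Sprr1a tags. Microglia and leukocyte markers summed to 15.2 and 30.2 FPKM in controls against 79.4 and 49.1 after IOP at 3 months, and to 50.0 and 57.1 against 150.3 and 84.4 at 18 months, with 0 of 8 called at either age. Muller glia markers summed to 1871 and 1496 FPKM in 18mo controls against 2838 and 2793 after IOP, with 1 of 7 called higher. Lens markers summed to 3.24 and 4.56 FPKM in 18mo controls against 6.36 and 20.7 after IOP, the higher value in the library with the highest Klf6 and Sprr1a, with 0 of 5 tested called. Rod markers summed to 17791 and 15841 against 12045 and 14448 (0 of 8 called), blood markers to 166 and 426 against 54.3 and 44.3 (0 of 5 called) and endothelial markers to 52.0 and 51.2 against 71.8 and 73.4 (0 of 6 called). The part of these cells, surface epithelium included, in the Sprr1a and Klf6 values was not tested.

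Gap43 (chr16:42248561-42340651, minus strand), a growth cone membrane protein, had 3.59 and 5.69 FPKM in 18mo controls and 9.03 and 8.67 after IOP, with no overlap. The change was 0.89 ± 0.30 on the log2 scale (limma adjusted p = 0.324). At 3 months it had 16.6 and 31.1 FPKM in controls and 30.3 and 30.0 after IOP, and the groups overlapped. A microRNA gene, Mir6540, lies inside Gap43 on the same strand.

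Stmn2 (chr3:8509527-8561604, plus strand), a microtubule regulator of axons, overlapped between IOP and control retinas at both ages. It had 35.6 and 68.5 FPKM in 3mo controls against 45.6 and 49.6 after IOP, and 2.95 and 8.28 FPKM in 18mo controls against 9.01 and 1.86 after IOP. The intervals were wide, from -1.58 to 1.46 at 3 months and from -1.73 to 1.31 at 18 months (95% intervals of the log2 fold change). In each group the library with the higher Stmn2 was also the one with the higher retinal ganglion cell marker sum. The sums of the 3mo controls differed mostly through Sncg, at 150 and 443 FPKM. Nefl, Thy1 and Slc17a6 had the same order there. Rbpms (5.85 and 3.67 FPKM), Pou4f1, Pou4f2, Pou4f3, Nefm, Nefh and Isl2 had the opposite order.

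Map3k12 (chr15:102497647-102510700, minus strand) encodes DLK, the kinase at the head of the injury signal. It had 7.30 and 5.37 FPKM in 3mo controls against 7.10 and 7.18 after IOP, and 9.41 and 10.6 in 18mo controls against 10.7 and 9.73 after IOP. Its log2 fold change was 0.18 (95% interval -0.25 to 0.60) and 0.03 (-0.40 to 0.46), the narrowest intervals among the tested genes of the 9. It overlaps Pcbp2 on the opposite strand, and counting was by strand.

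Gal (chr19:3409915-3414544, minus strand) encodes the neuropeptide galanin, which many injured neurons make. It had 0.526 and 1.56 FPKM in 3mo controls against 1.39 and 0.955 after IOP, and the groups overlapped. At 18 months both controls were at or below 6 tags, and the IOP libraries had 10 and 2 tags.

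Whether the response to IOP differed with age was tested as an interaction, judged by the adjusted p alone. The log2 fold change of Klf6 was higher at 18 than at 3 months by 1.44 ± 0.50, with an unadjusted limma p of 0.0201 and an adjusted p of 1. For Sprr1a the difference was 1.65 ± 0.68, given without a p since the gene was tested only through its 18mo IOP libraries. None of the 9 genes passed, 0% of the 13731 tested genes did, and 218 of these (1.59%) had an unadjusted p under 0.05. With voom the count was also 0.

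**Figure D3:**
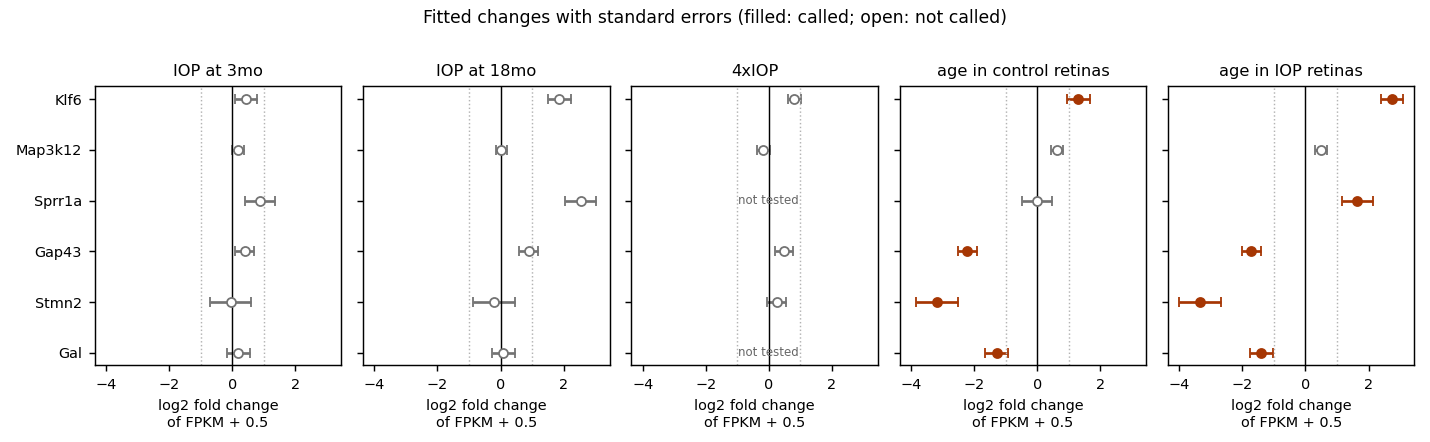
Log2 fold change of FPKM + 0.5 (horizontal axis) of the 6 tested genes in 5 comparisons, with the standard error as bars. Filled points were called and open points were not, and dotted lines mark a log2 fold change of 1 in either direction. All filled points lie in the 2 age comparisons, with Klf6 at 1.31 and 2.75 and Stmn2 at -3.18 and -3.34.

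Between 18 and 3 months Stmn2 and Gap43 fell and Klf6 rose, in control and in IOP retinas. These are 3 of the 4 genes above 0.5 FPKM in every library, and over all tested genes 23.2% were called in controls and 21.8% in IOP retinas. The thresholds were also passed by Gal in both comparisons and by Sprr1a in IOP retinas, which are not counted here. The 2 comparisons share no library, but they share the estimate of spread. Controls were the opposite eyes of treated mice, so both comparisons may rest on the same animals and are not independent of each other.

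Stmn2 fell by 3.18 ± 0.66 on the log2 scale in controls (limma adjusted p = 0.00917) and by 3.34 ± 0.66 in IOP retinas (adjusted p = 0.00908). The 4 libraries of 18-month-old mice lay between 1.86 and 9.01 FPKM and the 4 of 3-month-old mice between 35.6 and 68.5. The call in controls held at -3.86 without 18mo control replicate 2 and was lost without 18mo control replicate 1 (-2.51, adjusted p = 0.0558) or without 3mo control replicate 2 (-2.71, adjusted p = 0.0549). In IOP retinas it was lost without either 3mo IOP library (adjusted p = 0.0586 and 0.0589), and the change was -4.35 without 18mo IOP replicate 1 and -2.34 without replicate 2, both called.

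Gap43 fell by 2.21 ± 0.30 in controls (limma adjusted p = 0.00484) and by 1.71 ± 0.30 in IOP retinas (adjusted p = 0.00711). Its means were 23.9 ± 10.2 FPKM in 3mo controls and 4.64 ± 1.48 in 18mo controls (SD, n = 2). The call in controls held without each library, with adjusted p at most 0.0390. The call in IOP retinas was lost without either 3mo IOP library (adjusted p = 0.0537 and 0.0541), and with the trends of length and GC content removed it held at -1.09.

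Gal entered the test only through the 3-month-old retinas, where it was high, and its fitted log2 fold changes of -1.28 ± 0.37 in controls (limma adjusted p = 0.0237) and -1.39 ± 0.37 in IOP retinas (adjusted p = 0.0201) are given as a description. Both 18mo controls were at the limit of 6 tags or below, so that the 3mo controls were at least 6.13-fold higher, a bound of 3.09-fold from 3mo control replicate 1 alone and 9.16-fold from replicate 2 alone. This short transcript lost its calls once the trend of each library with transcript length was removed, with log2 fold changes of -0.35 (adjusted p = 0.333) in controls and -0.44 (adjusted p = 0.238) in IOP retinas. It also lost them without either 18mo control, without 18mo IOP replicate 2 and without either 3mo IOP library, with log2 fold changes from -1.58 to -1.10 and adjusted p from 0.0657 to 0.127, and without 3mo control replicate 2 it was not tested. With a pseudocount of 1 the changes were -0.85 and -0.93, under the fold required.

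Markers of retinal ganglion cells were lower with age, as were Stmn2, Gap43 and Gal. Their sum lay between 339 and 638 FPKM in the 4 retinas of 3-month-old mice and between 39.1 and 95.8 in the 4 of 18-month-old mice. Of 11 markers 10 were tested, and 6 were called lower with age in controls and 9 in IOP retinas, with none called higher. Amacrine markers overlapped between the ages, at 55.7 to 66.4 against 18.3 to 80.4 FPKM, and 1 of 7 tested was called lower in each comparison (Chat). Other lists also had genes called lower with age. Pigment epithelium markers summed to between 221 and 496 FPKM in the retinas of 3-month-old mice and between 121 and 170.1 in those of 18-month-old mice, with 6 of 7 tested called lower in both comparisons. Most of the sums at 18 months was Rlbp1, which is also on the Muller glia list and was the tested gene not called. It had 89.0 to 161 FPKM at 3 months and 118 to 160 at 18 months. Ttr had 54.2 to 168 FPKM at 3 months and 0.540 to 4.98 at 18 months. Rod markers summed to between 21118 and 24155 and between 12045 and 17791, with 1 of 8 called lower in each comparison (Sag in controls, Nrl in IOP retinas). Over all tested genes 11.6% were called lower in each comparison, near the shares of the rod and amacrine lists. The rod gene Nr2e3 had 206 and 189 FPKM in 3mo controls and 292 and 243 in 18mo controls. Of 5 tested markers of surface epithelium, 3 were called lower in controls and 0 in IOP retinas. These 3, 3 of the 6 pigment epithelium calls in each comparison, the amacrine call in both and 1 of the 9 ganglion cell calls in IOP retinas (Pou4f2) were for genes that passed the filter only through the retinas of 3-month-old mice. In whole retina, fewer ganglion cells and less RNA per ganglion cell cannot be told apart, and the part of these cell types in the lower Stmn2, Gap43 and Gal was not tested.

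**Figure D4:**
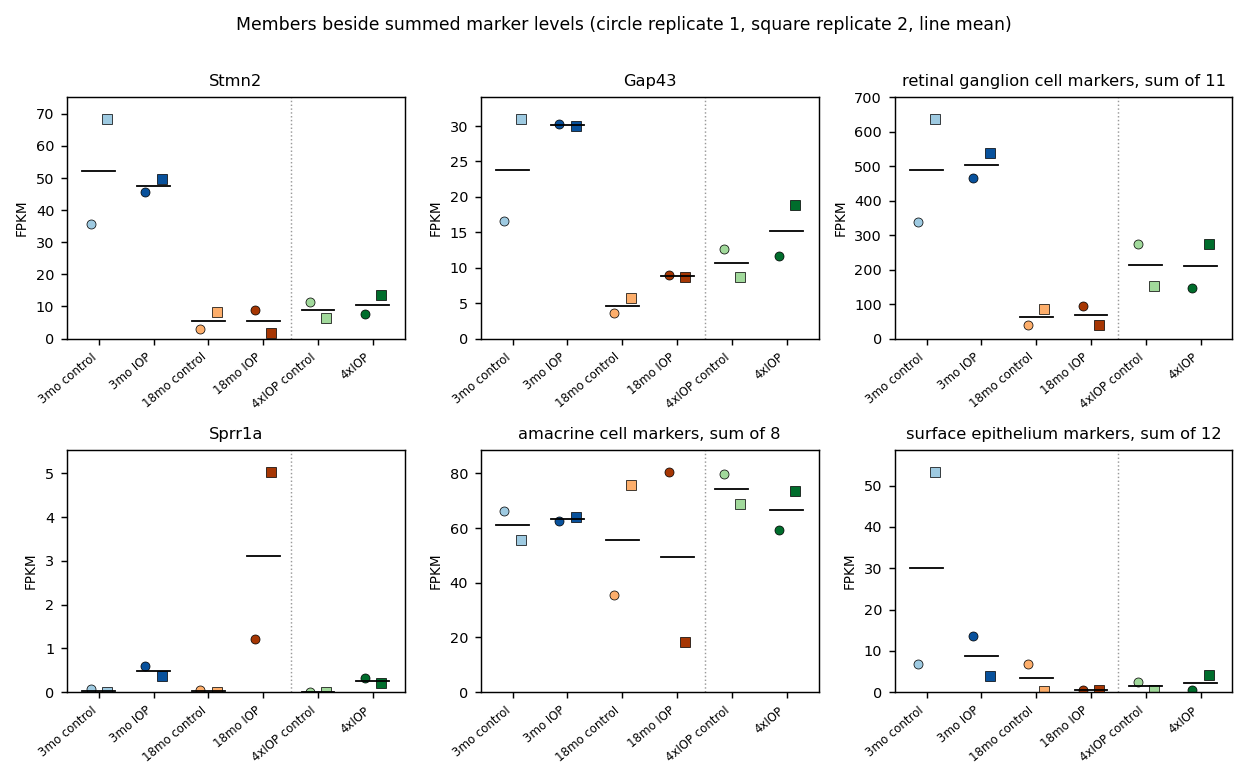
FPKM of Stmn2, Gap43 and Sprr1a beside summed FPKM of marker lists for retinal ganglion cells (11 genes), amacrine cells (8) and surface epithelium (12), by group, with circles for replicate 1, squares for replicate 2 and lines for the mean of 2 (vertical axes linear from 0). Stmn2 and the ganglion cell sum have the same order of replicates in all 6 groups, and the epithelial sum peaks at 53.3 in a library with no Sprr1a tag.

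Klf6 rose with age by 1.31 ± 0.35 in controls (limma adjusted p = 0.0196) and by 2.75 ± 0.35 in IOP retinas (adjusted p = 0.00316). The latter call held without each library in turn, with adjusted p at most 0.0369 and changes from 2.12 (without 18mo IOP replicate 2) to 3.37 (without replicate 1). The former was lost without either 18mo control or without 3mo control replicate 2, with adjusted p from 0.0758 to 0.0908. Summed markers of other cell types moved in the same direction. Over all tested genes 11.6% were called higher in controls and 10.2% in IOP retinas. The sum of 6 endothelial markers was 8.25 to 13.6 FPKM in the retinas of 3-month-old mice and 51.2 to 73.4 in those of 18-month-old mice, with 5 of 6 called higher in both comparisons, or 3 without the genes that passed the filter only through the older retinas. Muller glia markers summed to between 691 and 1222 FPKM and between 1496 and 2838, with 2 of 7 called higher in controls and 4 in IOP retinas. The microglia and leukocyte sum was 15.2 and 30.2 in 3mo controls against 50.0 and 57.1 in 18mo controls, with 5 of 8 called higher in both comparisons, or 4 in controls and 3 in IOP retinas without such genes. Their part in the Klf6 level was not tested.

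Sprr1a had at most 2 tags in all 4 control libraries of the age comparison, so no fold is given there. In IOP retinas the fitted difference was 1.65 ± 0.48 (limma adjusted p = 0.0280), a ratio of mean FPKM of 6.39 (2.47 from 18mo IOP replicate 1 alone and 10.3 from replicate 2 alone), for a gene tested only through the group where it was high. The threshold was missed without either 3mo IOP library (adjusted p = 0.0938 and 0.132), without the filter (0.0531), with only these 2 groups (0.0635) and with voom (0.0768), and without 18mo IOP replicate 2 the gene was not tested.

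Map3k12 had a change with age of 0.63 ± 0.19 in controls (limma adjusted p = 0.0267), below the fold needed for a call, and of 0.48 ± 0.19 in IOP retinas (adjusted p = 0.0672). After removal of length and GC trends these were 0.23 (adjusted p = 0.149) and 0.04 (adjusted p = 0.824).

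Repeated elevation was followed by higher values of Klf6, Sprr1a, Sox11 and Gal in both 4xIOP libraries than in both opposite eyes, of which Klf6 was under the fold required for a call and the other 3 were under the filter and not tested. Of all tested genes 27.7% were higher without overlap. Of the 4 tested genes 0 were called, where 6.15% of all tested genes were, and 0 were called with voom. Klf6 was the 1 gene of these 4 with an unadjusted p under 0.05, as had 15.4% of all tested genes. It had 5.14 and 4.61 FPKM in controls and 8.004 and 9.84 after 4 elevations. The change was 0.81 ± 0.21 on the log2 scale, with a limma adjusted p of 0.0299 (from 0.0322 to 0.637 without single libraries) but less than the fold required.

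Sprr1a had 0 tags in both 4xIOP controls and 14 and 7 in the 4xIOP retinas, 0.317 and 0.211 FPKM, a mean at least 1.42-fold above the limit. Fitted without the filter on low values, it had a change of 0.61 (limma adjusted p = 0.0310), also under the fold required. The 3mo IOP retinas had 0.609 and 0.366 FPKM, in a table scaled separately. Gal was at or below 6 tags in both 4xIOP controls and at 19 and 9 tags after 4xIOP, at least 1.88-fold above the limit.

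Sox11 (chr12:27334268-27342718, minus strand), a transcription factor of immature and regrowing neurons, had 0.214 and 0.134 FPKM in the 4xIOP controls and 0.371 and 0.493 after 4xIOP. The tags were 72 and 48 against 176 and 176, and the ratio of mean FPKM was 2.48. Without the filter the change was 0.47 ± 0.13 (limma adjusted p = 0.149). After a single elevation Sox11 overlapped with controls at both ages, at 0.160 and 0.129 against 0.126 and 0.148 at 3 months and at 0.054 and 0.081 against 0.069 and 0.115 at 18 months.

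Gap43 and Stmn2 overlapped between 4xIOP and control retinas. Gap43 had 12.7 and 8.64 FPKM in controls and 11.6 and 18.8 after 4xIOP, a log2 fold change of 0.48 (95% interval -0.12 to 1.08). For Stmn2 the values were 11.4 and 6.30 against 7.66 and 13.5 (0.25, interval -0.42 to 0.91). Map3k12 had 7.36 and 8.82 against 7.03 and 7.12, without overlap, as had 12.7% of all tested genes in that direction, and a small difference (-0.18, interval -0.63 to 0.28). The ganglion cell marker sum was 274 and 152 in the controls and 147 and 274 after 4xIOP, and none of the 11 markers was called. Stmn2 was at 11.4 and 6.30 FPKM in the 4xIOP controls and at 35.6 and 68.5 in the 3mo controls, values from tables scaled separately and not compared by a test.

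Markers of other cells moved with repeated elevation. Microglia and leukocyte markers were 8.36 and 8.11 FPKM in the controls and 109.4 and 108.7 after 4xIOP, with 8 of 8 called higher. Lens markers were 4.73 and 0.719 against 48.4 and 110.3, with 6 of 6 tested called higher. Pigment epithelium markers were 121 and 143 against 61.1 and 85.4, with 3 of 4 tested called lower. Most of these sums was Rlbp1, also on the Muller glia list, at 94.0 and 107 against 58.4 and 79.5 FPKM. Ttr had 18.5 and 23.0 against 1.88 and 4.17 FPKM. Endothelial markers were 21.3 and 27.7 against 49.5 and 54.1, with 1 of 5 called higher. Of these calls 3 of microglia and 4 of lens markers were for genes that passed the filter only through the 4xIOP retinas, and 2 of pigment epithelium only through the controls. Rod markers were 9648 and 10100.1 against 4768 and 7162, with 0 of 8 called and a median log2 fold change of -0.77. Muller glia and blood markers overlapped in their sums, with 2 of 7 and 0 of 4 tested called higher. The Muller glia sum held moves in both directions. Glul had 579 and 592 FPKM in controls against 249 and 292, and Rlbp1 was also lower. Apoe had 143 and 181 against 409 and 336, and Vim, Gfap, Slc1a3 and Aqp4 were also higher. The part of all these cell types in the values of Klf6, Sprr1a and Sox11 was not tested.

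Ecel1 and Hrk were low throughout. Ecel1 (chr1:87147655-87156356, minus strand), an endopeptidase-like protein that is raised in injured neurons, had 1 and 0 tags in the 3mo controls and 10 and 10 after IOP, a mean at least 1.57-fold above the limit. At 18 months it had 12 and 4 tags in controls and 16 and 24 after IOP. After 4xIOP it had 49 and 6 tags against 2 and 10, so 1 library set the mean, and the 2 tables list transcripts of different length for it, 2848 and 2856 bases. Hrk (chr5:118169764-118189478, plus strand), a BH3-only death gene downstream of JNK, ranged from 0.009 to 0.113 FPKM, and its groups overlapped in all 3 IOP comparisons. With age Hrk was higher without overlap in both comparisons, at 8 and 8 tags in 3mo controls, 10 and 2 in 3mo IOP, 18 and 18 in 18mo controls and 30 and 16 in 18mo IOP retinas. Ecel1 was higher without overlap in both, and Sox11 was lower without overlap in both (0.467 and 0.672), all under the filter and not tested. Of all tested genes 45.7% and 43.2% were higher without overlap with age and 32.8% and 34.5% lower.

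The genes whose pattern over the 8 single-elevation libraries was most like each of the 6 tested genes were listed by Pearson's r of log2(FPKM + 0.5), as a description. These libraries fall into 2 age groups, which the r contains. Klf6 was most like Micall2, Epha2 and Clcf1 (r from 0.992 to 0.998), and Sprr1a was most like Gfpt2, Ptp4a1 and Pgf (0.983 to 0.994). For Stmn2 they were Resp18, Arhgap15 and Enpp5 (0.997 to 0.998), and for Gap43 Ccdc91, Ppp2ca and Nsfl1c (0.992 to 0.997). Gal was most like Apoa2, A930005H10Rik and Ociad1, and Map3k12 was most like Acap3, Ube2o and Ap2a1. None of the 6 was among the 3 genes most like another of them. Klf6 and Sprr1a had r = 0.844.

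The rest of the injury program was read from 5 lists. Over all tested genes the shares called were 5.45% higher and 0.693% lower after 4xIOP, 0.568% higher and 0.00728% lower at 3 months, 0.117% higher and 0.00728% lower at 18 months, 11.6% higher and 11.6% lower with age in controls, and 10.2% higher and 11.6% lower with age in IOP retinas. Some list genes reached the filter only through the side where they were high, averaging under 0.5 FPKM over the other libraries (for age, the libraries of the other age). Their values are descriptions, and each list's count is also given without them. Upstream stand the 14 genes of DLK and JNK signaling. None was called after IOP elevation at either age or after 4xIOP, and the list medians were 0.00, -0.05 and -0.09 on the log2 scale, against 0.13, 0.09 and 0.10 over all tested genes. The smallest p-values belonged to Mapk8ip1 and Mapk8ip2, JNK scaffolds, at 3 months, Mapk9 and Mapk10, which encode JNK kinases, at 18 months, and Sarm1 and Map2k7 after 4xIOP, with limma adjusted p of 0.108 or more. With age in controls Sarm1, an enzyme of axon degeneration, rose by 1.36 and Mapk8ip3 also rose (1.14). In IOP retinas Sarm1 alone was called higher, by 1.19. The 2 of 14 called in controls and 1 of 14 in IOP retinas stand beside 11.6% and 10.2% of all tested genes called higher. With length and GC trends removed the changes of Sarm1 were 0.42 and 0.33 and that of Mapk8ip3 was 0.24, all uncalled. The calls were also lost without 3mo control replicate 2 (both genes), without either 18mo control (Mapk8ip3) and without either 3mo IOP library (Sarm1).

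Of 14 transcription factors of the program, 3 of the 12 tested after 4xIOP were called higher and none lower. Cebpd had 0.858 and 1.42 FPKM in controls and 22.8 and 28.0 after 4xIOP, Atf3 had 3.78 and 2.71 against 15.3 and 19.9, and Stat3 had 5.95 and 7.20 against 29.4 and 32.2. Their log2 fold changes were 3.99, 2.27 and 2.15. Both libraries lay above both controls for each. At 3 months Cebpd alone was called higher (2.43 and 4.66 against 42.5 and 36.0 FPKM). At 18 months none of 14 was called, although Atf3 had 14.5 and 11.9 FPKM in controls against 29.7 and 59.9 (limma adjusted p = 0.117) and Stat3 had 12.7 and 13.8 against 29.1 and 50.1 (adjusted p = 0.115).

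With age 5 of the 14 transcription factors were called higher in controls and 5 in IOP retinas, with none lower, and 4 and 3 without the genes that passed only through the older retinas (Klf4, and in IOP retinas also Myc). Jun, a subunit of AP-1 and a target of JNK, had 5.57 and 3.28 FPKM in 3mo controls and 89.5 and 49.4 in 18mo controls, a log2 fold change of 3.81 ± 0.34. It was the largest of the list in controls, followed by Klf4 (2.95), Atf3 (2.08) and Cebpd (1.80), the last lost without 18mo control replicate 1 or 3mo control replicate 1. In IOP retinas Klf4 (4.51), Jun (3.73), Atf3 (2.25) and Myc (2.03) led. Myc had 1.33 and 7.06 FPKM after IOP at 18 months and at most 0.570 in the other 6 single-elevation libraries. It was not tested without 18mo IOP replicate 2, and its call was lost without either 3mo IOP library and under 4 of 13 alternatives. The list median, with Klf4 and Myc included, was 0.51 in controls and 0.72 in IOP retinas, against 0.16 and 0.09 over all tested genes. It is given as a description.

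The 20 growth cone and cytoskeleton genes were called in both directions. After 4xIOP the tubulins Tubb6 (0.289 and 0.217 FPKM in controls against 3.30 and 3.24) and Tubb2b and the adhesion molecule Chl1 were called higher, 3 of 18 tested, or 2 without Tubb6, which passed the filter only through the 4xIOP retinas. Tubb6 and Tubb2b were also called higher at 3 months (2.22 and 1.21) and Tubb2b at 18 months (1.45). With age 6 of 18 were called lower in controls and 6 in IOP retinas, against 1 and 0 called higher, where 11.6% of all tested genes were called lower in each. Stmn3, a paralog of Stmn2, had 134 and 421 FPKM in 3mo controls and 28.0 and 45.7 in 18mo controls and fell by 2.72. Stmn4 fell by 1.89, Tuba1a fell by 1.38 and Tubb3 fell by 1.27. The call on Stmn3 was lost without 18mo control replicate 1, those on Stmn4 and Tuba1a without either 18mo control or without 3mo control replicate 2, and that on Tubb3 without each of the 4 control libraries. Stmn4 also lost its call under 4 of 14 alternatives, the replicate block among them, Tubb3 under 2 and Tuba1a under 1.

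Among 19 injury-induced secreted and surface genes, 4 of 14 tested were called higher after 4xIOP. Among them were Socs3, an inhibitor of cytokine signaling (0.351 and 0.313 FPKM in controls against 16.2 and 13.2), Fgf2 and the adhesion receptor Cd44, with 2 of the 4 (Socs3 one of them) passing the filter only through the 4xIOP retinas. Socs3 was also called at 3 months (2.42) and Cd44 at 18 months (2.19). With age 7 of 15 were called higher and 4 lower in each comparison. Without genes that passed only through their high side, Vip and Lif among them, these were 6 higher and 2 lower in controls and 5 higher and 2 lower in IOP retinas. The neuropeptides Npy and Vip had log2 fold changes of -3.93 and -3.62 in controls and -3.48 and -3.45 in IOP retinas, while Socs3 rose by 3.39 and Plat by 1.70 in controls, and Socs3 rose by 2.38 in IOP retinas, where Lif had a fitted change of 2.48. Lif had 1.77 and 12.8 FPKM in the 18mo IOP libraries, its change ran from 1.20 to 3.76 without single libraries, and its call was lost without either 3mo IOP library and under 3 of 14 alternatives. The galanin receptors Galr1, Galr2 and Galr3 were at 0.156 FPKM or less in all libraries.

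Of 16 BCL2 family and caspase genes, the family of Hrk, Bik was the 1 called after 4xIOP, at 0.215 and 0.177 FPKM in controls against 2.15 and 1.39, a log2 fold change of 1.69 for a gene that passed the filter only through the 4xIOP retinas. None was called after a single elevation. With age Bcl2 rose by 1.35 in controls, where Pmaip1 (1.77) and Bcl2l11 were also called higher and Bad lower, and in IOP retinas Pmaip1 (2.14), Bcl2 (1.27) and Bad (-1.43) were called. The 4 of 16 in controls and 3 of 16 in IOP retinas were near the shares over all genes, 23.2% and 21.8%. Pmaip1 passed the filter only through the older retinas, and without it 3 were called in controls and 2 in IOP retinas. In controls the calls of Bad and Bcl2l11 were lost without either 18mo control or 3mo control replicate 2, and Bcl2l11 under 6 of 14 alternatives. In IOP retinas Bcl2 was lost without either 3mo IOP library and Bad without each of the 4. Bcl2 guards against the cell death that the BH3-only proteins Pmaip1, Bik and Bad promote.

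The calls on the genes of these lists that the naming rule chose differed in firmness, counted here without those that passed the filter only through their high side. Of 7 called after 4xIOP, 6 were called under every other setting that could test them and without each library, the exception being Tubb2b. None of the 4 named calls at 3 months and none of the 2 at 18 months held throughout, and with voom and with median-of-ratios scaling all 6 were lost. Of the age calls, 5 of 15 in controls (Atf3, Jun, Npy, Plat and Socs3) and 4 of 11 in IOP retinas (Atf3, Jun, Npy and Socs3) held throughout.

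**Figure D5:**
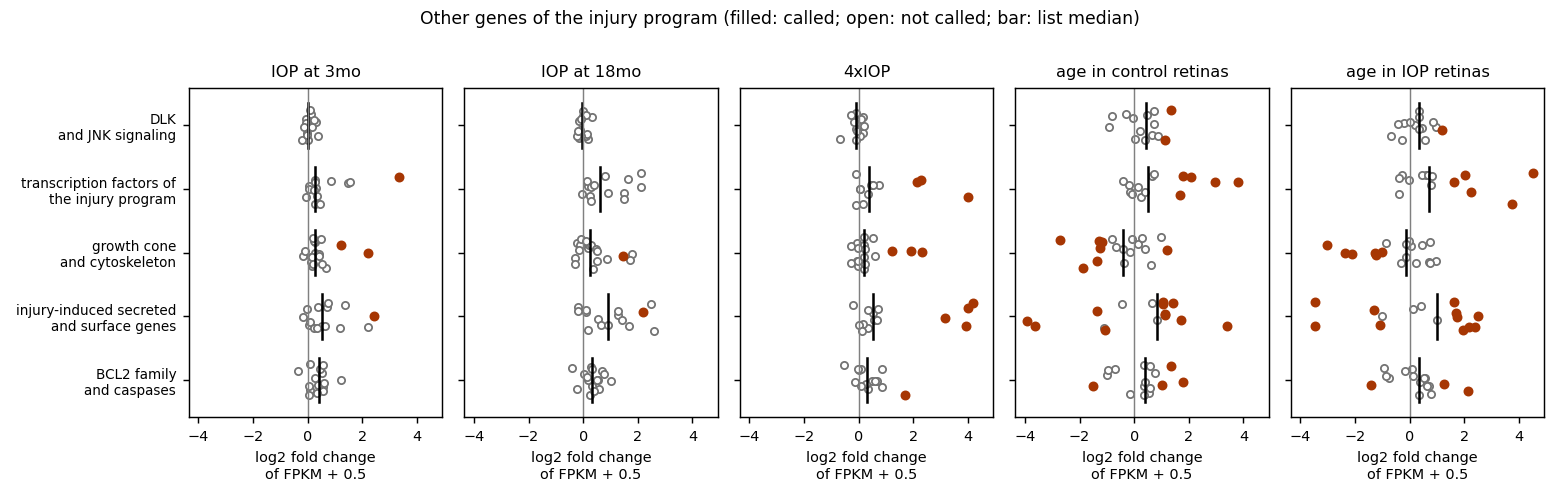
Log2 fold change of FPKM + 0.5 (horizontal axis) of every tested gene of the 5 lists in 5 comparisons. Filled points were called, open points were not, vertical bars are list medians, and the vertical spread within a row carries no value. The DLK and JNK row has no filled point in the 3 IOP comparisons, and in the transcription factor row all filled points lie above 0.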

How the data were processed

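Poly(A)-enriched, strand-specific libraries were aligned by the authors to mm10 with STAR 2.7.8a and counted in exons with HOMER, per the labels and the study's methods. The deposited FPKM values, with 1 isoform per locus, were used as given, and replicates had not been pooled. The authors' own tests used DESeq2. Numbers of tags were recovered from FPKM and transcript length, and at least 99.95% of the checked values came to whole tags within 0.1 tag. Each table was fitted with limma 3.58.1 (R 4.3.3) on log2(FPKM + 0.5) with a mean-variance trend, 13731 genes in 4 groups and 13718 in 2 groups. Spread is thus shared across groups. The fits were tested on simulated data. The 9 genes and all lists were chosen with earlier results of these data known. All 9 were described. From each list the called genes were named, at most the 4 with the largest change, or else the 2 with the smallest p. A gene that this rule chose is not reported here. Alternatives covered pseudocounts of 0.1 and 1, filters, scaling, trend, block, length trend, voom and leaving out libraries, and 3 more were chosen after seeing the data (GC trend, both trends, crossed block).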

Additional observations from a re-analysis of the deposited data

How the results depend on the processing

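Among the 4 genes above 0.5 FPKM in every library, 3 were called with age in controls and 3 in IOP retinas, under all 14 alternatives of each, the replicate block included, and 1 to 3 without single libraries. For IOP at 3 months, 4xIOP and the interaction 0 of them were called throughout, and for IOP at 18 months 0, or 0 to 1 without single libraries. The counts that follow are over all tested genes of the 9, with Gal and Sprr1a, whose calls carry no weight because of the filter. The count was 0 for IOP at 3 months, for the interaction and for 4xIOP under all alternatives and without each library. For IOP at 18 months it was 0 under 14 alternatives and 0 to 2 without single libraries. For age in control retinas it was 4, with 3 or 4 under alternatives and 1 to 4 without single libraries. For age in IOP retinas it was 5, with 3 to 5 and 1 to 5, and the 3 came from a filter at a mean of 2 FPKM, which left Sprr1a and Gal untested. No call of the 9 genes changed direction. Same-numbered libraries did not deviate together (correlations of -0.28 at 3 months, -0.53 at 18 months and -0.29 for 4xIOP). With a replicate block on these numbers 4 of the 9 genes were called with age in controls, 5 in IOP retinas and 0 with IOP, and the calls over all genes at 18 months went from 17 to 0. Crossed numbers, a pairing added after seeing the data, gave 65 calls higher and 1 lower at 3 months, 0 at 18 months and 780 higher and 114 lower for 4xIOP. Over all genes and the alternatives other than leaving out libraries, calls for IOP at 3 months ranged from 3 (voom) to 120 (length trend removed), at 18 months from 0 to 67, for age in controls from 1346 to 3825 and in IOP retinas from 1440 to 3532, and for 4xIOP from 475 to 967. Without single libraries they ran from 0 to 257 at 3 months (highest without 3mo control replicate 2), from 0 to 138 at 18 months (highest without 18mo IOP replicate 1), from 1171 (without 18mo control replicate 2) to 4720 (without 3mo control replicate 1) for age in controls, from 677 (without 3mo IOP replicate 2) to 2783 for age in IOP retinas and from 667 to 800 for 4xIOP. Median-of-ratios scaling moved the split for age in controls from 1595 higher and 1590 lower to 1056 and 1959. With 2 libraries a group, and at most 59 tags in any library for Gal, Ecel1 and Hrk, changes smaller than the stated limits were not detectable.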
